A study of Mus musculus with 2 samples.

Results

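Cholesterol synthesis and turnover were followed here through 7 of the 32285 genes measured, chosen by symbol: Hmgcs1, Idi1, Fdft1, Sqle, Msmo1, Insig1 and Cyp46a1. All 7 were found as single entries, and their levels were compared over spots grouped by marker genes of myelin, astrocytes and neurons. The study used 10x Visium, which captures polyA RNA from a section on a slide of barcoded spots, each covering a patch of tissue with RNA from several cells or parts of them. It measured 2 sections, 10 µm thick, of fresh frozen brain from wild-type C57BL/6 mice, both labelled ZT12 (commonly zeitgeber time, counted from lights on). No treatment, mutant, age or sex was given, and no source used here says whether the sections came from separate animals. The p-values for spot groups and regions therefore measure only the spread of their differences between these sections, estimated partly from other genes. That spread may be technical, and the sections also differed in the kinds of spots they held.

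Cholesterol in the brain is made locally, because lipoprotein cholesterol from the blood hardly passes the blood-brain barrier. Acetyl-CoA units are built into mevalonate, then isoprenoids, then squalene, and squalene is closed into a ring and trimmed to cholesterol; SREBP transcription factors drive these genes when sterol in the endoplasmic reticulum is low. Oligodendrocytes use much of the product for myelin, astrocytes export it on apolipoprotein E, and neurons remove excess by turning it into 24S-hydroxycholesterol, which leaves the brain.

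The 7 genes cover the path at several points. Hmgcs1 (chr13:119690351-119708260) encodes the cytosolic HMG-CoA synthase, at the entry to the mevalonate pathway, and Idi1 (chr13:8885606-8892396) encodes the isomerase of the isoprenoid building blocks. Fdft1 (chr14:63145150-63181687) encodes squalene synthase, the first step committed to sterols, and Sqle (chr15:59315092-59331193) encodes squalene epoxidase, a rate-limiting step after it. Msmo1 (chr8:64718123-64733578) encodes a sterol oxidase that removes methyl groups from the ring. Insig1 (chr5:28071412-28078662) encodes a membrane protein that holds the SREBP complex in the endoplasmic reticulum and is itself an SREBP target. Cyp46a1 (chr12:108334268-108362234) encodes cholesterol 24-hydroxylase, the enzyme of cholesterol removal in neurons. All are protein-coding, and each position spans the whole gene in RefSeq's annotation of GRCm38.p6.

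Promoter windows from RefSeq on GRCm38.p6, from 250 bases before to 50 after the gene start, matched 5 of the 7 members; the start that the Cyp46a1 window uses lies slightly downstream of the gene start given above. Of the genes matched, Hmgcs1, Msmo1 and Insig1 had their highest mean level in myelin-rich spots and Cyp46a1 in neuron-rich spots, as described next. Msmo1 differed little between the spot groups and was not called in their contrasts below. The windows of these 4 genes are shown. They are written 5′ to 3′ on the gene's strand, and capitals mark 2 short motifs searched on both strands: CCAAT, the box bound by NF-Y, which reads as ATTGG when it lies on the other strand, and TCACNCCAC, a form of the sterol regulatory element bound by SREBP. The windows are Hmgcs1 on the plus strand (chr13:119690101-119690400), Msmo1 on the minus strand (chr8:64733529-64733828), Insig1 on the plus strand (chr5:28071162-28071461) and Cyp46a1 on the plus strand (chr12:108334066-108334365).
Hmgcs1: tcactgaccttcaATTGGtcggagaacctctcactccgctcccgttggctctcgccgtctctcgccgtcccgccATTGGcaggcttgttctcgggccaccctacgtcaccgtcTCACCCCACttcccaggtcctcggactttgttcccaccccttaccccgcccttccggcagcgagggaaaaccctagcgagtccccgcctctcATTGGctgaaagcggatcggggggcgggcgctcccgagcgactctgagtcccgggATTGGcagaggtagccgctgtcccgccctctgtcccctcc
Msmo1: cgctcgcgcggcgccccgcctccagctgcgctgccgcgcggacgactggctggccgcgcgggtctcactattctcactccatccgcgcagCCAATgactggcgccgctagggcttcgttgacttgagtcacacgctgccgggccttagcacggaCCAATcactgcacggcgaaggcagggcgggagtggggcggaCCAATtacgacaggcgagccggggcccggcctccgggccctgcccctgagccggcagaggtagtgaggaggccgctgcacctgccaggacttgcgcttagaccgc
Insig1: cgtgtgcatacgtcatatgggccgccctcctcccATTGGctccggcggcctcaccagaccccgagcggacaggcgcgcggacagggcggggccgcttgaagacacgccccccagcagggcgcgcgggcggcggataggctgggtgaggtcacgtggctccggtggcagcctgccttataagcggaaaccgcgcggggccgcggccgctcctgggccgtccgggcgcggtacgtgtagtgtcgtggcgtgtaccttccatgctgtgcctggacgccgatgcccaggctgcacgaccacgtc
Cyp46a1: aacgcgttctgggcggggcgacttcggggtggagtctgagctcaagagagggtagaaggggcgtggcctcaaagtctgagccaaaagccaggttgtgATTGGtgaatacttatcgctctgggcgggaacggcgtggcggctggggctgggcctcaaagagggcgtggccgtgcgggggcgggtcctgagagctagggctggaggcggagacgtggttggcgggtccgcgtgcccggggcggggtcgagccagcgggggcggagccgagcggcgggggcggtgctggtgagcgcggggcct
The Hmgcs1 window held 4 CCAAT motifs and 1 match to TCACNCCAC, which read TCACCCCAC and began at base 114. Msmo1 held 3 CCAAT motifs, Insig1 held 1 and Cyp46a1 held 1, and none of these windows held the longer motif. Idi1, not printed, held 2 CCAAT motifs. CCAAT was in 37.4% of the 32851 promoter windows of the table and TCACNCCAC in 1.24%. A match is a run of letters, not a measured binding site, and the lack of one applies to this window only.

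Section 1 held 58662871 UMIs (unique molecular identifiers, each counting 1 captured RNA molecule) in 3167 spots, and section 2 held 55851559 in 2533 spots. Spots with at least 500 UMIs were kept, 3030 and 2531 of them, with medians of 18127 and 21555 UMIs. The file headers name Space Ranger 1.2.2 for section 1 and 2.0.1 for section 2, so software version and section cannot be told apart. The sections share 1965 spot barcodes, which belong to the array design and not to cells. All 10 myelin, 12 astrocyte and 10 neuron markers used for grouping were detected in both sections, as were the markers of every other cell type checked.

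Levels are given in CPM, counts scaled to the total UMIs of the spots named. The assay counts molecules near their 3′ ends and the genes were not scaled for length, so levels are compared within a gene only. Hmgcs1 stood at 180.2 and 179 CPM in sections 1 and 2, from 10565 and 10001 UMIs, and had at least 1 UMI in 88.2% and 95.4% of spots. Idi1 was the sparsest member, with 743 and 595 UMIs (12.7 and 10.7 CPM) and a UMI in 21.0% and 20.4% of spots, so its comparisons rest on the fewest molecules. The whole-section levels lay close together for Fdft1 (117 and 123 CPM), Sqle (47.9 and 51.7 CPM) and Msmo1 (83.4 and 92.7 CPM). Insig1 was higher in section 1, at 80.3 CPM against 65.1 CPM in section 2. Cyp46a1 was lower there, at 180.5 CPM against 252 CPM, from 10584 and 14095 UMIs. These section gaps enter every fit as a term for the section.

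Spots were ranked within their section by the share of UMIs from each marker list, and a spot in the top 25% of exactly 1 list was called myelin-rich, astrocyte-rich or neuron-rich. These groups held 492, 459 and 690 spots in section 1 and 427, 385 and 521 spots in section 2, while 1389 and 1198 spots were in none or in more than 1. The labels describe RNA content of small areas, not single cells, and in such sums fewer cells of a type and less RNA per cell cannot be told apart. The groups differed in more than the marker lists. Median depth was 11536.5 and 15291 UMIs in myelin-rich spots and 19100 and 21176 in astrocyte-rich spots, against 24124 and 25441 in neuron-rich spots. Myelin-rich spots were thus the shallowest in both sections. Blood markers (haemoglobins and Alas2) summed to 2549 and 1828 CPM in myelin-rich spots and 2372 and 2666 CPM in astrocyte-rich spots, against 563 and 716 CPM in neuron-rich spots. The 6 microglial markers summed to 451 and 409 CPM in myelin-rich and 448 and 384 CPM in astrocyte-rich spots, against 283 and 272 CPM in neuron-rich spots. Mitochondrial transcripts took 15.5% and 14.7% of UMIs in myelin-rich and 17.2% and 16.4% in astrocyte-rich spots, against 13.3% and 12.8% in neuron-rich spots. The part of these differences in the results was not tested beyond the following repeats, given where they changed a call. One took spots of middle depth (between the 25th and 75th percentile of total UMIs in their section). Median depth there was still 15358 and 19446 UMIs in myelin-rich spots, against 19670 and 22657 in neuron-rich spots. Another left out spots rich in blood, choroid plexus, ependymal or meningeal markers. A further repeat left out the mitochondrially encoded genes, and the number of members called did not change. Spots rich in microglial markers were not left out in any repeat.

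The comparison of spot groups asks where each step of the pathway stands relative to myelin, astrocyte and neuron RNA. Between myelin-rich and neuron-rich spots, Cyp46a1 fell and Insig1 rose, while the 5 enzymes of synthesis did not pass the test. Between astrocyte-rich and neuron-rich spots, Cyp46a1 and Fdft1 fell. Between myelin-rich and astrocyte-rich spots, Insig1 and Hmgcs1 rose. Counts of spots were summed per section and group and tested over 15012 genes with edgeR's quasi-likelihood test, and a gene was called where the Benjamini-Hochberg adjusted value was below 0.05; changes are log2 fold changes ± SE from 2 sections, after TMM scaling.

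In myelin-rich against neuron-rich spots, 1 of the 7 members rose, where 17.9% of all tested genes rose, and 1 fell, where 18.7% fell. The members' median log2 fold change was 0.05, against -0.02 over all tested genes. In astrocyte-rich against neuron-rich spots, 0 rose by edgeR, with 12.1% of all genes higher, and 2 fell, with 11.7% lower; DESeq2 also called 0 higher and 2 lower, and 2 members had an unadjusted p under 0.05, both lower. The medians were -0.08 for the members and -0.01 for all genes. In myelin-rich against astrocyte-rich spots, 2 rose, with 6.8% of genes higher, and 0 fell, with 4.94% lower; 4 members had an unadjusted p under 0.05, of which Cyp46a1 was lower, and DESeq2 called 1 higher and 0 lower. The medians were 0.17 and -0.03. These 3 contrasts share their sums and are not independent, and without the term for the section 0 of 7 members passed in each by edgeR, while all called changes kept their sign.

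**Figure D1:**
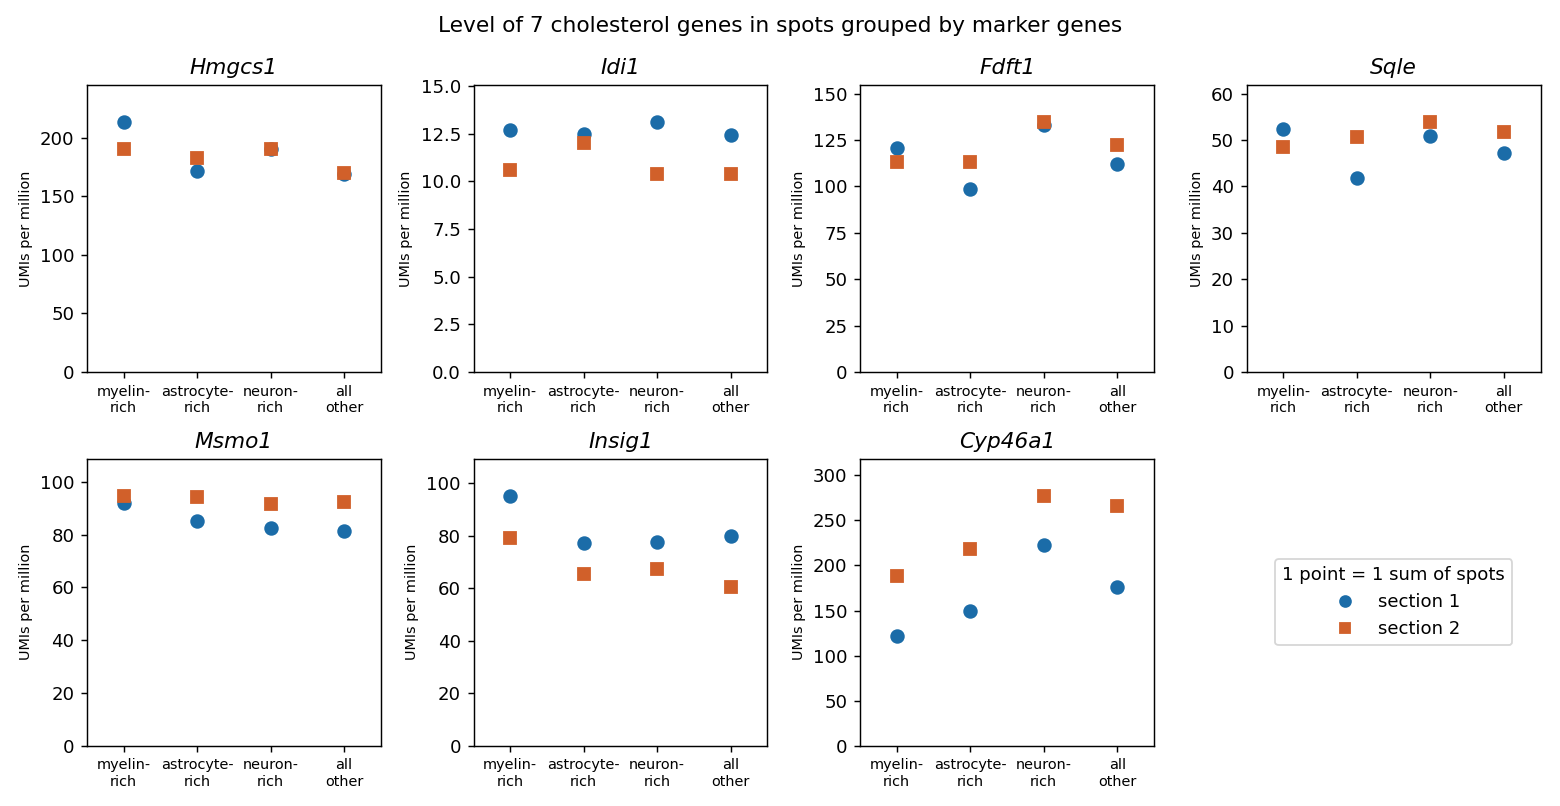
Level of each member in CPM (vertical axis, from 0) in the spot groups (horizontal axis), with 1 point for each of the 2 sections. Cyp46a1 lies at 122 and 188 CPM in myelin-rich spots, below 222 and 277 CPM in neuron-rich spots, while Idi1 differs little between the groups.

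Cyp46a1, the 24-hydroxylase, had the widest range over spot groups of the 7 members on the log2 scale. It stood at 122 and 188 CPM in myelin-rich spots (sections 1 and 2) and at 149.6 and 218 CPM in astrocyte-rich spots, against 222 and 277 CPM in neuron-rich spots. The myelin-rich and astrocyte-rich values did not overlap those of neuron-rich spots, and within each section the order was neuron-rich, then astrocyte-rich, then myelin-rich. The fitted change was -0.64 ± 0.07 in myelin-rich against neuron-rich spots (adjusted p = 1.34e-05) and -0.44 ± 0.07 in astrocyte-rich against neuron-rich spots (adjusted p = 0.000566). The changes were -0.80 and -0.55 in section 1 alone and -0.49 and -0.32 in section 2 alone. Between myelin-rich and astrocyte-rich spots the change was -0.21 ± 0.07, which missed the threshold (adjusted p = 0.0912). Both calls against neuron-rich spots held in the other settings except without the section term, where the adjusted p was 0.236 and 0.560.

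Insig1, the membrane protein that holds back the SREBP complex, was highest in myelin-rich spots. It stood at 95.1 and 79.4 CPM in myelin-rich spots and 77.1 and 65.3 CPM in astrocyte-rich spots, against 77.6 and 67.4 CPM in neuron-rich spots. The myelin-rich values lay above both other groups in both sections, and the other 2 groups lay close together within each section. The change was 0.33 ± 0.07 in myelin-rich against neuron-rich spots (adjusted p = 0.00234) and 0.33 ± 0.07 against astrocyte-rich spots (adjusted p = 0.00928), and in astrocyte-rich against neuron-rich spots it was -0.00 ± 0.07 (adjusted p = 0.985). Over spots of middle depth the first of these was 0.21 and did not pass (adjusted p = 0.0735).

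Hmgcs1, the synthase at the entry of the pathway, stood at 213 and 191 CPM in myelin-rich spots and 172 and 182 CPM in astrocyte-rich spots, against 190.1 and 190.3 CPM in neuron-rich spots. The myelin-rich level was above the neuron-rich one in section 1 and nearly equal to it in section 2, and above the astrocyte-rich one in both. The change was 0.23 ± 0.06 in myelin-rich against astrocyte-rich spots (adjusted p = 0.0269), with 0.35 in section 1 and 0.11 in section 2. This call passed in 4 of 11 tested settings. It was 0.10 over spots of middle depth (adjusted p = 0.533) and 0.19 without spots rich in blood, choroid plexus, ependymal or meningeal markers (adjusted p = 0.0595). Against neuron-rich spots the changes were 0.15 ± 0.06 for myelin-rich spots (adjusted p = 0.0666) and -0.08 ± 0.06 for astrocyte-rich spots (adjusted p = 0.359).

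Fdft1, squalene synthase, stood at 120.5 and 113 CPM in myelin-rich spots and 98.6 and 113 CPM in astrocyte-rich spots, against 133 and 134 CPM in neuron-rich spots. Neuron-rich spots were the highest of the groups in both sections. The change was -0.32 ± 0.07 in astrocyte-rich against neuron-rich spots (adjusted p = 0.00407), and over spots of middle depth it was -0.08 (adjusted p = 0.550). In myelin-rich against neuron-rich spots it was -0.13 ± 0.07 (adjusted p = 0.154).

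The other 3 enzymes passed in none of these contrasts by edgeR. Msmo1, the sterol methyl oxidase, stood at 91.8 and 94.6 CPM in myelin-rich spots and 85.4 and 94.3 CPM in astrocyte-rich spots, against 82.6 and 91.8 CPM in neuron-rich spots. Its astrocyte-rich values overlapped those of both other groups, and its change in myelin-rich against neuron-rich spots was 0.16 ± 0.06 (adjusted p = 0.0590). Sqle, squalene epoxidase, stood at 52.3 and 48.4 CPM in myelin-rich and 41.8 and 50.7 CPM in astrocyte-rich spots, against 50.8 and 53.8 CPM in neuron-rich spots. Its myelin-rich and neuron-rich values overlapped, with a change of 0.01 ± 0.09 (adjusted p = 0.962). Idi1, the isomerase, stood at 12.7 and 10.6 CPM in myelin-rich and 12.5 and 12.03 CPM in astrocyte-rich spots, against 13.1 and 10.4 CPM in neuron-rich spots. Its values overlapped between all 3 groups, and with 71 to 228 UMIs in a sum its SE of 0.14 in myelin-rich against neuron-rich spots was the widest of the members.

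**Figure D2:**
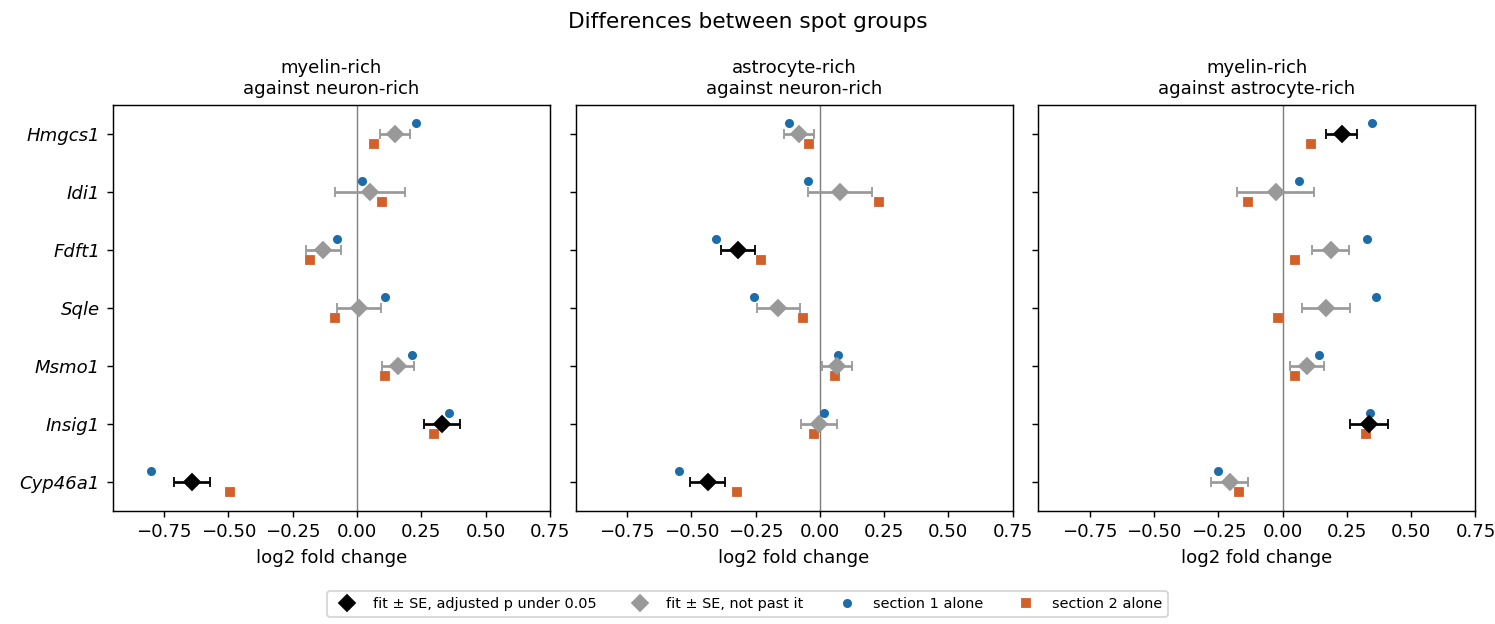
Log2 fold change of each member (rows) in the 3 contrasts of spot groups (panels), as the fitted value ± SE (diamonds, black where the adjusted p is under 0.05) and the value of each section alone. Cyp46a1 is lowest in the left and middle panels, at -0.64 and -0.44, and Insig1 lies at 0.33 in the left and right panels.

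The marker shares move against each other over spots, which bears on all contrasts above. The myelin share had a Spearman correlation with the neuron share of -0.53 in section 1 (3030 spots) and -0.37 in section 2 (2531 spots), and with total UMIs of -0.64 and -0.58; the shares have the same denominator and the spots of a section share a library. A joint fit therefore divided each share into 3 equal bins of spots, over 54 sums from 27 combinations in each section. It gave the change per bin of 1 share with the other shares held, over 11922 genes. Total UMIs per spot were not a term of this fit, so depth was not held. The 27 sums of a section come from 1 library and stand in for replicates, so p-values of the joint fit rest mostly on the spread among bins and are too small as a measure of the spread between sections. On the myelin axis 3 members rose, where 22.9% of genes rose, and 1 fell, where 26.6% fell. On the neuron axis 3 rose (21.5% of genes) and 0 fell by edgeR (20.8% of genes); DESeq2 also called 0 lower, and no member had both a negative change and an unadjusted p under 0.05. On the astrocyte axis 0 of 7 passed in either direction by edgeR, where 3.82% of genes rose and 2.42% fell; 2 had an unadjusted p under 0.05, Idi1 at 0.12 ± 0.05 and Cyp46a1 at -0.05 ± 0.02, and DESeq2 called 0.

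Insig1 rose with the myelin share, by 0.27 ± 0.03 per bin (adjusted p = 1.20e-13, edgeR), with 0.24 in section 1 and 0.29 in section 2. With spots ranked into 4 equal bins of the myelin share, its level increased from bin to bin in both sections, at 69.4, 81.6, 90.3 and 91.4 CPM in section 1 and 55.9, 61.7, 71.7 and 78.5 CPM in section 2. It also rose with the neuron share once the others were held, by 0.08 ± 0.03 (adjusted p = 0.00849), though over 4 bins of the neuron share alone it stayed between 77.9 and 81.6 CPM in section 1 and between 61.9 and 67.9 CPM in section 2. The neuron-axis call was 0.05 in section 1 and 0.11 in section 2, and passed in 7 of 11 tested settings. Without spots rich in blood, choroid plexus, ependymal or meningeal markers it was 0.07 (adjusted p = 0.0521).

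Cyp46a1 fell with the myelin share, with a change of -0.16 ± 0.02 per bin (adjusted p = 6.60e-08), and rose with the neuron share, with a change of 0.18 ± 0.02 (adjusted p = 7.27e-09). From the lowest to the highest of 4 bins of the myelin share its levels were 211, 188, 159 and 123 CPM in section 1 and 288, 256, 240.0 and 198 CPM in section 2. Over the bins of the neuron share they were 125.5, 158, 191 and 221 CPM in section 1 and 199, 253, 265 and 275 CPM in section 2. Both series ran one way in both sections, and both calls passed in 11 of 11 tested settings. The myelin-axis change was -0.19 in section 1 and -0.13 in section 2, and the neuron-axis change 0.25 and 0.12.

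Hmgcs1 rose with the myelin share by 0.12 ± 0.03 (adjusted p = 0.000704; 0.12 in section 1 and 0.11 in section 2), again in 11 of 11 tested settings, and had no call on the neuron axis (0.04 ± 0.03, adjusted p = 0.339). Over 4 bins of the neuron share its levels were 189.9, 169, 172 and 189.5 CPM in section 1 and 184, 171, 170.6 and 191 CPM in section 2. The 2 middle bins were lowest in both sections, so a single slope describes Hmgcs1 poorly along the neuron share. Msmo1 rose with the myelin share by 0.10 ± 0.03 (adjusted p = 0.00210; 0.15 in section 1 and 0.05 in section 2), but by 0.07 over spots of middle depth (adjusted p = 0.103). Fdft1 rose with the neuron share by 0.11 ± 0.03 (adjusted p = 0.00425; 0.08 in section 1 and 0.13 in section 2), but by 0.03 over spots of middle depth (adjusted p = 0.526); its 4 bins of the neuron share ran 107, 109.6, 113 and 132 CPM in section 1 and 102, 120.2, 129 and 133 CPM in section 2. Sqle and Idi1 passed on none of the 3 axes.

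**Figure D3:**
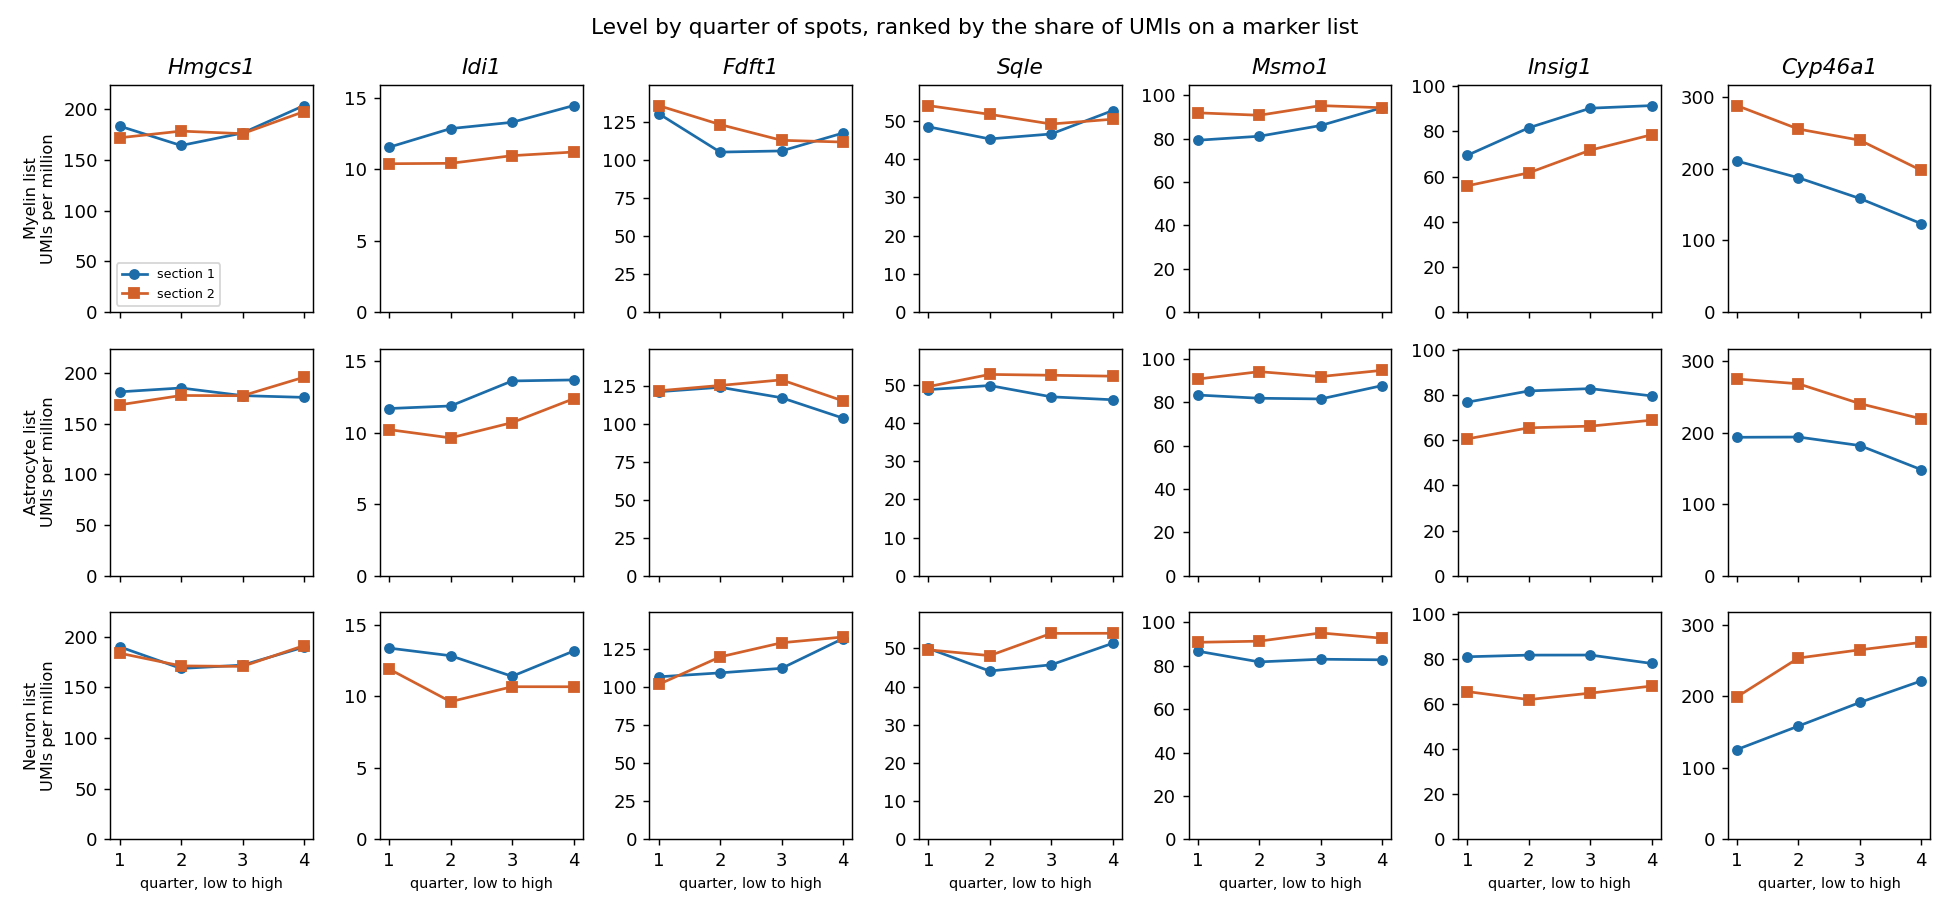
Level of each member in CPM over 4 equal bins of the myelin, astrocyte and neuron marker shares (horizontal axis, lowest to highest), with 1 line per section. Insig1 climbs from 69.4 to 91.4 CPM along the myelin share in section 1 and Cyp46a1 drops along it, while Cyp46a1 climbs along the neuron share.

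The members were then set among 39 other genes of the pathway in 4 lists. The mevalonate pathway list had a median log2 fold change of 0.02 in myelin-rich against neuron-rich spots. Of the sterol steps after squalene, 5 of 10 passed in myelin-rich against neuron-rich spots, each of them higher, where 17.9% of all tested genes were higher and 18.7% lower, with a list median of 0.24; the 4 largest were Lbr (0.84), which reduces a ring double bond and also anchors chromatin, Ebp (0.53), a sterol isomerase, Lss (0.34), which closes the ring, and Sc5d (0.32), a desaturase. In astrocyte-rich against neuron-rich spots Lbr rose as well (0.44).

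The regulators and uptake genes had a list median of 0.01 in myelin-rich against neuron-rich spots. Srebf1, an SREBP gene, rose, at 36.0 and 31.1 CPM in myelin-rich and 20.4 and 18.6 CPM in neuron-rich spots (0.85). In astrocyte-rich against neuron-rich spots Srebf1 rose (0.72) and Srebf2, the SREBP gene most tied to cholesterol synthesis, fell (-0.20). The turnover and efflux genes had the largest share of calls of the 4 lists: 6 of 10 tested rose and 1 fell in myelin-rich against neuron-rich spots, beside 17.9% and 18.7% of all tested genes, with a median of 0.56, and Ch25h was too low to test. Cyp27a1, the sterol 27-hydroxylase, stood at 21.9 and 10.9 CPM in myelin-rich and 5.51 and 3.51 CPM in neuron-rich spots (1.93), opposite in direction to Cyp46a1. Lcat, which esterifies cholesterol on lipoproteins, rose (0.91), as did Npc2, a lysosomal cholesterol carrier (0.90), and Apoe, the main brain apolipoprotein (0.64). The gene that fell was Abcg4, a sterol exporter (-0.38).

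In astrocyte-rich against neuron-rich spots 7 of 10 turnover genes passed, each of them higher, where 12.1% of all tested genes were higher and 11.7% lower, with a list median of 0.38, and the largest were Lcat (1.23), Cyp27a1 (0.93), Apoe (0.75) and Abca1 (0.61), a cholesterol exporter. In myelin-rich against astrocyte-rich spots 3 of 10 rose, where 6.8% of all tested genes were higher and 4.94% lower, Cyp27a1 (0.997), Abcg1 (0.59), an exporter, and Npc2 (0.53), and 2 fell, Cyp7b1 (-0.49), an oxysterol hydroxylase, and Lrp1 (-0.20), an apolipoprotein E receptor. Blood markers and microglial markers were also higher in myelin-rich and astrocyte-rich than in neuron-rich spots, by the values given above, and their part in these lists was not tested gene by gene.

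**Figure D4:**
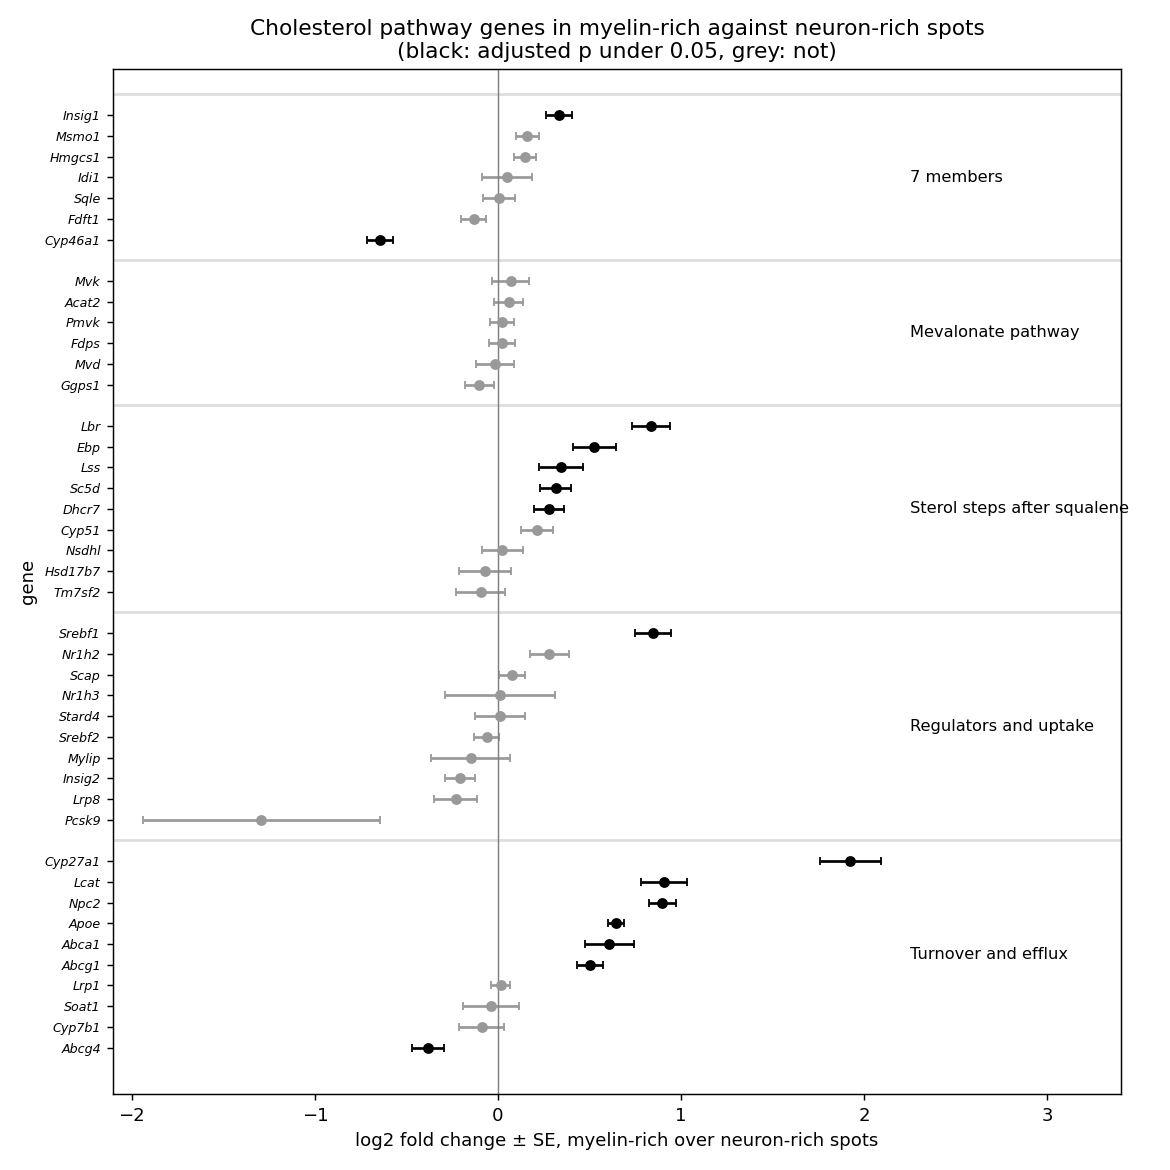
Log2 fold change ± SE in myelin-rich against neuron-rich spots for the 7 members and the genes shown of 4 pathway lists (rows, by list), black where the adjusted p is under 0.05. The black points of the sterol list and all but 1 of the turnover list lie right of 0, up to 1.93 for Cyp27a1, while Abcg4 and Cyp46a1 lie left of it.

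Regions were defined next without the members. A random part of the genes (15982, none of them members, pathway or marker genes) served to cluster the spots, and the other 16303 were held out for testing. Of 16 clusters, 11 reached 30 spots in both sections, and these held 4920 of 5561 spots. Some clusters lay mostly in 1 section, with 27 and 211 spots in sections 1 and 2 for cluster 11. Cluster 12 had 157 and 17 spots, and cluster 14 had 73 and 0. The spot groups above were not matched for this, and its part in the spread between sections was not tested. The regions kept are called by number and by up to 3 held-out genes of largest rise. With 22 sums and 7177 genes tested, all 7 members differed among regions, where 63.9% of all tested genes did. The adjusted p by edgeR's F test ran from 6.13e-11 for Cyp46a1 to 0.0182 for Idi1. Idi1 then passed in 0 of 11 single regions by edgeR and by DESeq2, with 4 regions at an unadjusted p under 0.05. Each region that follows is set against the mean of the others. By DESeq2, the calls in region 1, of Insig1 in region 5 and of Cyp46a1 in region 8 did not pass (adjusted p from 0.0673 to 0.0916). Insig1 in region 5 also did not pass without TMM (adjusted p = 0.0745), and without the term for the section 17 of the 31 calls in single regions did not pass.

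Region 6 (Klk6, Gjb1), where myelin markers took 4.35% and 4.69% of UMIs, combined higher synthesis and Insig1 transcripts with lower Cyp46a1: 4 of the 6 other members rose, where 16.3% of genes rose, and Cyp46a1 fell, where 15.5% fell. Hmgcs1 reached 236 and 233 CPM there (0.52 ± 0.06), its highest level of all regions in both sections. Msmo1 stood at 105 and 103 CPM (0.38 ± 0.08), Sqle at 58.4 and 56.0 CPM (0.36 ± 0.09) and Insig1 at 94.8 and 83.2 CPM (0.35 ± 0.09). Cyp46a1 had its lowest level of all regions there in both sections, at 108 and 162 CPM (-0.50 ± 0.09). Region 5, which shared the same leading genes with a smaller myelin share of 2.15% and 2.45%, had 1 of the 6 others higher, Insig1 (0.27 ± 0.09, with 6.52% of genes higher), and Cyp46a1 lower (-0.35 ± 0.09, with 3.44% lower).

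Region 4 (Dkk3, Stx1a, Mpped1), with a neuron marker share of 0.937% and 0.909%, combined higher transcripts of 3 synthesis enzymes with higher Cyp46a1. There 4 of 7 members rose, where 18.1% of genes rose. Fdft1 reached its highest level, at 157 and 161 CPM (0.58 ± 0.06), and Hmgcs1 stood at 223 and 228 CPM (0.39 ± 0.06). Sqle rose by 0.29 ± 0.07 and Cyp46a1 by 0.39 ± 0.07, to 222 and 264 CPM. Hmgcs1 was therefore highest in a region rich in myelin markers and next highest in one rich in neuron markers. The gap between them, 0.0539 on the log2 scale, was just below the spread between sections of 0.0543.

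Region 7 (Wipf3, 2010300C02Rik, St6galnac5) had lower levels of most members: 5 of the 6 other members fell, where 15.4% of genes fell, and Cyp46a1 did not pass. Insig1 stood at 56.6 and 47.2 CPM there (-0.58 ± 0.09), below 9 of the other 10 regions in section 1 and all of them in section 2. Hmgcs1, Fdft1, Sqle and Msmo1 changed by -0.25 to -0.30. Region 10 (Penk, Tac1, Gng7) had high Cyp46a1, at 226 and 340 CPM (0.62 ± 0.09, with 8.08% of genes higher); Hmgcs1 (-0.37 ± 0.08), Sqle (-0.39 ± 0.11) and Insig1 (-0.46 ± 0.12) fell, with 6.76% lower, while Fdft1 did not pass, at 149.3 and 112.6 CPM. It held 40 spots in section 1 and 202 in section 2. In section 1 it gave 14 UMIs of Insig1 and of Sqle, and choroid plexus markers summed to 12285 CPM in it, so its section 1 values are imprecise: the Insig1 change was -1.39 in section 1 alone and -0.33 in section 2 alone. The part of choroid plexus RNA was not tested.

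Region 2 (Prkcd, Tnnt1, Plekhg1) had the highest Cyp46a1 of all regions in section 1, at 278 CPM, with 328 CPM in section 2 (0.78 ± 0.07, with 11% of genes higher), and lower Fdft1, at 82.0 and 90.0 CPM (-0.36 ± 0.07, with 6.67% lower). Region 15 (Pvalb, Spp1, Rgs6) had the lowest Fdft1, at 68.6 and 82.9 CPM (-0.56 ± 0.15, with 2.23% lower and 3.15% higher). These levels came from only 30 and 61 UMIs, in 37 and 35 spots. Region 3 (Hap1, Nos1, Rab3b) had higher Fdft1, at 146 and 142 CPM (0.38 ± 0.07), and higher Sqle, at 54.7 and 61.9 CPM (0.30 ± 0.08), with 6.58% of genes higher and 5.11% lower. Region 1 (Cd83, Tcf7l2, Tmem91) had 3 members higher, Fdft1, Sqle and Msmo1, by 0.23 to 0.24, with 6.38% of genes higher and 3.9% lower. Region 9 (Hba-a1, Hba-a2, Hbb-bt), led by haemoglobin genes, had higher Hmgcs1 (0.17 ± 0.06, with 13.7% higher; adjusted p = 0.0455, and 0.0941 without the filter on low counts) and lower Cyp46a1 (-0.43 ± 0.09, with 12.9% lower). In region 8 (Spp1, Syt2, Nefm) Cyp46a1 fell (-0.27 ± 0.09), with 5.49% lower and 8.4% higher, and 0 of the 6 others passed by edgeR or DESeq2 or had an unadjusted p under 0.05.

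**Figure D5:**
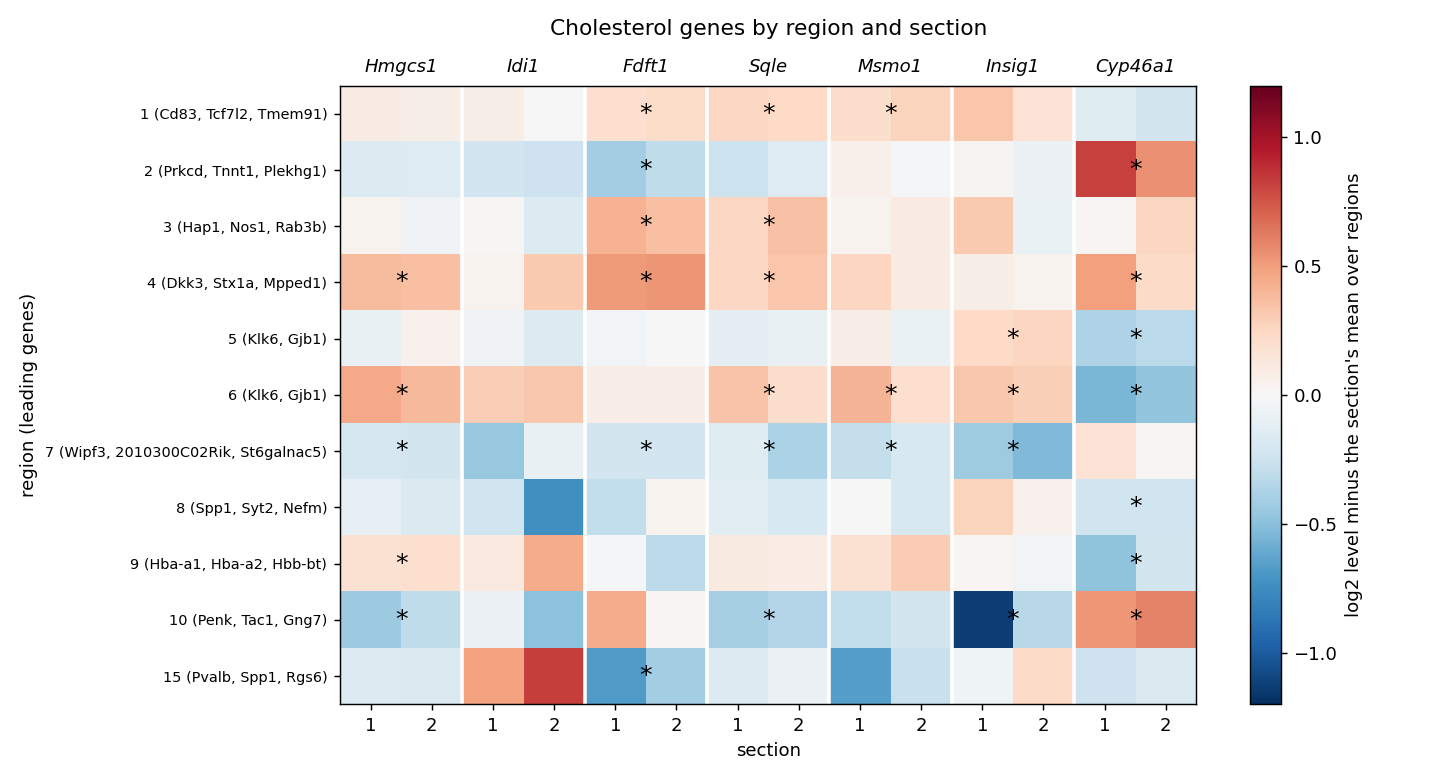
Level of each member (columns, 1 per section) in the 11 regions (rows), as log2 level minus the section's mean over regions, from blue (low) to red (high), with a star where the region differed from the mean of the others at an adjusted p under 0.05. Cyp46a1 is red in regions 2, 4 and 10 and blue in region 6, while Hmgcs1 is red in regions 6 and 4 and blue in region 10.

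The order of the regions was firm for some members and loose for others. Of the 10 gaps between neighbouring regions in the order of mean level, 5 exceeded the spread between sections for Hmgcs1, 4 for Cyp46a1, 3 for Sqle, 2 each for Fdft1, Msmo1 and Insig1, and 1 for Idi1. For Cyp46a1, the gap between regions 2 and 10 (0.124 on the log2 scale) was just below the spread (0.126). Regions 1, 15, 8, 5 and 9 formed a run with no gap above it. For Insig1 the first 9 regions formed 1 such run, above regions 7 and 10. For Idi1 region 15 alone stood apart in this order, at 18.3 and 19.0 CPM, but from only 8 and 14 UMIs. Against the mean of the others, Idi1 in region 15 was not called by edgeR or by DESeq2 (DESeq2 adjusted p = 0.162). The other 10 regions ran from 6.43 to 15.99 CPM for Idi1. The 6.43 CPM, in region 8 of section 2, also came from 8 UMIs. The levels of the 11 regions correlated between sections with a Pearson r of 0.93 for Hmgcs1, 0.89 for Cyp46a1, 0.87 for Sqle, 0.85 for Fdft1, 0.81 for Msmo1, 0.78 for Idi1 and 0.66 for Insig1.

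Over the 22 region sums, centred per section, the levels of Hmgcs1 and Sqle had a Pearson r of 0.86, Hmgcs1 and Msmo1 0.80 and Sqle and Msmo1 0.74. Of the 15 pairs among the 6 members other than Cyp46a1, 14 had a positive r, from -0.16 for Idi1 and Fdft1 to 0.86. Fdft1 was the loosest of the better-counted enzymes, with 0.38 to Hmgcs1 and 0.02 to Insig1. Cyp46a1 had 1 positive r of 6, between -0.44 with Insig1 and 0.09 with Fdft1. Regions of a section share a library and its depth, so these values describe the sums and carry no test.

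Among 5569 other genes of at least 30 CPM, those most alike over the same 22 sums were as follows. They were picked for the highest r in these sums, so their r is high by selection and carries no test. Cyp46a1 was closest to Cdk5r1 (r = 0.96), Dlgap4 (0.92) and C1qtnf4 (0.92), and Insig1 to Nap1l4 (0.95), Pfdn2 (0.91) and Mfn1 (0.90). The 3 values of Insig1 were 0.97, 0.95 and 0.94 in section 1 alone and 0.88, 0.78 and 0.71 in section 2 alone. Hmgcs1 was closest to Stmn1 (0.87), Sept8 (0.85) and Sulf2 (0.83), and Sqle to Selenoh (0.83), Stmn1 (0.82) and Fxyd6 (0.81). Stmn1 was on both lists. Msmo1 was closest to Rnf181 (0.84), Anp32e (0.83) and Pde6d (0.83), Fdft1 to Rab3b (0.81), Fnbp1l (0.79) and Maco1 (0.77), and Idi1, with the loosest fit, to Ddit3 (0.78), Mfsd1 (0.70) and Lmbrd1 (0.69).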

How the data were processed

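RNA was measured by 10x Visium in 2 sections of wild-type mouse brain. The deposited values are raw UMI counts per gene and spot, with no normalization; they were made with Space Ranger, version 1.2.2 for section 1 and 2.0.1 for section 2 per the file headers, and per the submitters' processing notes 2.0.1, with the genome build mm10. The barcode and feature files served as names, and spot positions were not used.

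Spots of at least 500 UMIs were kept (137 and 2 dropped). Doublets were not sought, because spots are not single cells. Spots were grouped by the summed share of 3 marker lists, and the markers were left out of the spot-group tests. Spots were not used as replicates: UMIs were added up for each section by spot group, by combination of 3 bins per list (at least 10 spots) or by region. Sums were fitted with edgeR 4.0.16 in R 4.3.3 (TMM, filterByExpr, a term for the section, quasi-likelihood F tests; 3, 49 and 10 residual degrees of freedom for spot groups, joint fit and regions). The SE is the log2 change divided by the square root of F. The call threshold was 0.05 after Benjamini-Hochberg adjustment across every gene of the fit.

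Regions came from 2000 variable genes, 30 principal components, 15 neighbours and Leiden clustering at resolution 1 (Python 3.11.15 with numpy 2.4.6, scipy 1.17.1, igraph 0.11.9, scikit-learn 1.9.0 and leidenalg 0.10.2). Region tests were restricted to genes not used for clustering. The members, marker lists, pathway lists and tests were chosen with earlier results of these data known. The naming rule took the 7 members, up to 4 called genes with the largest change per pathway list, the 3 genes most alike per member and 3 leading genes per region. A few genes that the rule names are not reported here.

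Alternatives were DESeq2 1.42.0, no TMM, no filter, no section term, no mitochondrially encoded genes, other groupings and depths, and other clusterings. The steps were tested on simulated data: with 14800 genes, 49% of 1.41-fold and 14.1% of 1.19-fold changes were recovered in myelin-rich against neuron-rich spots, so small changes that miss the threshold are not shown to be absent. In the joint fit on the myelin axis, with 11800 genes, 85% of 1.19-fold and 14.1% of 1.07-fold changes per bin were recovered. Small changes per bin that miss the threshold are therefore not shown to be absent either. Of the simulated joint-fit calls, 6.6% were false. The simulated sums were drawn independently, whereas the real sums of a section share 1 library. The 6.6% therefore cannot tell how many of the real joint-fit calls are false. Among regions, with 6980 genes, changes were put into 1 region only. There 23.7% of 1.41-fold and 0% of 1.19-fold changes were recovered, and 15.4% of calls were false. These sums were drawn independently as well, so the 15.4% cannot tell how many of the real region calls are false.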

Additional observations from a re-analysis of the deposited data

How the results depend on the processing

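All 44 calls of single members kept their sign under every alternative run on them. The 31 calls for single regions were repeated only on the same regions. Those repeats were DESeq2, no TMM, no filter, no section term and each section alone. The removal of mitochondrially encoded genes and the other clusterings, groupings or depths were not among them. They used the same counts, so a kept sign was likely beforehand. Of the 7 members, 2 passed in each contrast of spot groups. Without the replicate block (the term for the section) 0 passed in each of the 3, and over spots of middle depth 1 passed in each. In myelin-rich against astrocyte-rich spots 1 passed with grouping by mean z-score, without spots rich in choroid plexus, ependymal, meningeal or blood markers, with the top bin of 3 in place of the top 25% and with DESeq2. On the astrocyte axis of the joint fit 1 passed with mean z-scores, against 0, and on the neuron axis 1 passed with lists cut at the median, against 3.

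Without the block the calls over all genes were 1632 in myelin-rich against neuron-rich, 5 in astrocyte-rich against neuron-rich and 251 in myelin-rich against astrocyte-rich spots, against 5490, 3562 and 1762 with it. On the astrocyte axis they were 335 without the block, 353 at middle depth, 290 with lists cut at the median and 1509 with mean z-scores, against 745. Among regions 2930 genes were called without the block, against 4586; Cyp46a1 and Idi1 then missed the threshold (adjusted p = 0.0655 and 0.0664), as did 17 of the 31 calls in single regions. The block number names a section, which gives each sum its library, so the block belongs to the design. At middle depth the contrasts had 3092, 1901 and 1123 calls and the myelin axis 3131, against 5910; DESeq2 gave 3568, 1707 and 1081, and mean z-scores 1131 for myelin-rich against astrocyte-rich spots. Without TMM the share of calls that were higher was 38.6% in myelin-rich against neuron-rich spots (48.9% with it), 45.0% in myelin-rich against astrocyte-rich spots (57.9%) and 34.9% on the myelin axis (46.3%). With 1 section left out there is no replicate section, so the values have no test, and those of each section alone stand in the text. Idi1, with 743 and 595 UMIs, is limited most by depth.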
